A study of Homo sapiens with 8 samples.

Results

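The genes described here are 10 genes of protein folding in the endoplasmic reticulum (ER): HSPA5, HSP90B1, HYOU1, SDF2L1, MANF, CALR, PDIA4, PDIA6, CRELD2 and XBP1. They were picked by symbol from a table of 46427 gene symbols, all 10 were in it once, and all 10 passed the filter on low counts that left 18303 genes for testing. They were followed in cells derived from H7, an established human embryonic stem cell line of unaltered (WT) genotype, which the labels call differentiated type 2 alveolar cells. Bleomycin, which breaks DNA strands, was put on the apical side of the cultures for 24 hours at 24, 240 or 480 µg/ml, and a control group got none. Each of the 4 groups had 2 libraries. Nothing in the labels says that they came from separate cultures, so the p-values measure only the spread between these libraries. All groups had the same history: 21 days of stepwise submerged differentiation to lung progenitors, then inserts, with 3 days submerged and 7 days at an air-liquid interface. The stock concentration in the labels, 10 µg/ml, is below every dose.

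The label of the cells was checked against markers. Of 12 type 2 alveolar markers, 3 had too few counts to test. They were the surfactant genes SFTPC (at most 7 counts in any library), SFTPA1 (at most 2) and SFTPA2 (at most 7). The summed level of all 12 ran from 99.7 to 188 CPM (counts scaled to library size) across the 8 libraries. LPCAT1 made up most of that sum in each library, with 60.2 to 126 CPM. NKX2-1 had 0.261 to 1.27 CPM, SFTPD 0 to 0.234 CPM and NAPSA 0.0979 to 0.395 CPM. The 12 hepatic markers, which include ALB and AFP, summed to 40755 to 86069 CPM, so the cultures also carried abundant messages of liver type secreted proteins. In bulk RNA, fewer cells of a type and less RNA per cell cannot be told apart.

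The ER folds proteins that are to be secreted or put into membranes. HSPA5 (BiP), its Hsp70 chaperone, holds unfolded chains and also binds the stress sensors ERN1 (IRE1), EIF2AK3 (PERK) and ATF6. When unfolded protein builds up, HSPA5 leaves the sensors, IRE1 splices the message of the transcription factor XBP1, and spliced XBP1 and cleaved ATF6 switch on chaperone genes, a program called the unfolded protein response. HSP90B1 (GRP94) is the ER Hsp90. HYOU1 is a nucleotide exchange factor of HSPA5, SDF2L1 works with ER J-domain proteins that serve HSPA5, and MANF is a small secreted and ER-held protein that binds HSPA5. CALR, calreticulin, is a calcium-binding lectin that holds glycoproteins while they fold. PDIA4 and PDIA6 are protein disulfide isomerases, and CRELD2 is an ER protein with EGF-like repeats that is induced by ER stress. XBP1 is a regulator and not a chaperone. The deposited values are per gene symbol, so spliced and unspliced XBP1 cannot be separated.

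The best known DNA element of these genes is the ER stress response element (ERSE), a CCAAT box bound by NF-Y and, 9 bases on, a CCACG bound by ATF6 or XBP1. It was searched on both strands as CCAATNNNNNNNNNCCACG, together with its variant ERSE-II (ATTGG and CCACG with 1 base between), in windows from 250 bases before to 50 bases after each RefSeq gene start (GRCh38.p14), of which the 10 genes have 13. An ERSE lay in 6 of the 10 genes and an ERSE-II in SDF2L1 and HYOU1, so 8 of 10 genes held one or the other. Among all 27305 genes with such a window 44 did (0.161%), and among the 13134 tested genes with one, 32 did (0.244%). The matched stretches are shown because 8 of the 10 genes share them and few other genes do. Capitals mark the CCAAT and CCACG parts of each element, on either strand:
HSPA5, chr9:125241381-125241419, minus strand: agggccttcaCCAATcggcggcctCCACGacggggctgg
HSP90B1, chr12:103930206-103930349, plus strand: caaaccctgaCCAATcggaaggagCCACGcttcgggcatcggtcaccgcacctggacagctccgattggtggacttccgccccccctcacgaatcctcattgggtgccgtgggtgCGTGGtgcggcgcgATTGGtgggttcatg
HYOU1, chr11:119057264-119057400, minus strand: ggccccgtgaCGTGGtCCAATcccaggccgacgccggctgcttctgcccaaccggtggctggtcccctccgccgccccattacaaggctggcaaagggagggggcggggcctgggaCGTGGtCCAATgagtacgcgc
SDF2L1, chr22:21642104-21642134, plus strand: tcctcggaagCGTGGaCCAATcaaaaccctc
CALR, chr19:12938374-12938412, plus strand: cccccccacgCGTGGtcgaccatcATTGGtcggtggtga
PDIA6, chr2:10812843-10812881, minus strand: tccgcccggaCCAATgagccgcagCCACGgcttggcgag
CRELD2, chr22:49918544-49918582, plus strand: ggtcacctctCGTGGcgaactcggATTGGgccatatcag
XBP1, chr22:28800593-28800631, minus strand: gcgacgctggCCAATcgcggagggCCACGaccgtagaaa
HSP90B1 held 2 ERSEs and HYOU1 held 2 copies of ERSE-II, and the distal copy in HYOU1 also completes the core TGACGTGG of another XBP1 element, found in 0.927% of all genes. Neither element was found in the windows of PDIA4 and MANF, although the separate parts were. Those parts are common: all 10 genes held CCAAT and all 10 held CCACG, against 42.3% and 54.4% of tested genes. The window of CRELD2 is almost the same stretch as that of ALG12, a mannosyltransferase gene that starts in the opposite direction, so both share 1 ERSE.

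Levels in TPM, which allows for transcript length, differed over 2 orders of magnitude between the 10 genes. At 480 µg/ml HSP90B1 had 2471 ± 748 TPM, CALR 1534 ± 56.6, PDIA6 831 ± 105, HSPA5 785 ± 125, PDIA4 574 ± 39.5, XBP1 434 ± 34.3, MANF 173 ± 14.7, HYOU1 172 ± 3.45, CRELD2 33.9 ± 6.42 and SDF2L1 21.0 ± 4.13 (SD, n = 2 each, as are all ± SD below). In that order PDIA6 and HSPA5 overlapped, and so did MANF and HYOU1, while the other neighbours were separated in both libraries. In untreated cells the order was HSP90B1 with 2526 ± 56.2 TPM, CALR with 1008 ± 2.71, PDIA6 with 825 ± 50.2, HSPA5 with 759 ± 13.8, PDIA4 with 464 ± 0.703, XBP1 with 373 ± 11.4, MANF with 162 ± 8.41, HYOU1 with 119 ± 8.32, SDF2L1 with 15.1 ± 1.75 and CRELD2 with 13.7 ± 0.13. SDF2L1 and CRELD2, in the opposite order here, differed by less than the spread of SDF2L1, while each other pair of neighbours was separated. HSP90B1 lay above 99.7% of tested genes in untreated cells and CRELD2 above 60.6%, so even the lowest member was well expressed. Together the 10 genes summed to 6175 and 6353 TPM in untreated cells, 6372 and 7116 TPM at 24 µg/ml, 6823 and 6885 TPM at 240 µg/ml, and 7713 and 6345 TPM at 480 µg/ml. The 2 sums at 480 µg/ml lay farther apart than those of any other group.

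After bleomycin at the 2 higher doses, some ER folding genes rose and the central chaperones did not pass the test. At 240 µg/ml CRELD2 and CALR were called higher than in untreated cells, and at 480 µg/ml CRELD2, CALR, HYOU1 and PDIA4 were. No member was called lower at any dose. A gene was called where edgeR's quasi-likelihood test over all 8 libraries gave a Benjamini-Hochberg adjusted p under 0.05 over all 18303 genes. The 2 members called higher at 240 µg/ml compare with 5.16% of all tested genes called higher and 5.17% called lower, and the 4 members called higher at 480 µg/ml with 13.9% called higher and 13.9% called lower. Values in each library below are CPM, scaled by edgeR's TMM factors, and compare a gene with itself.

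**Figure D1:**
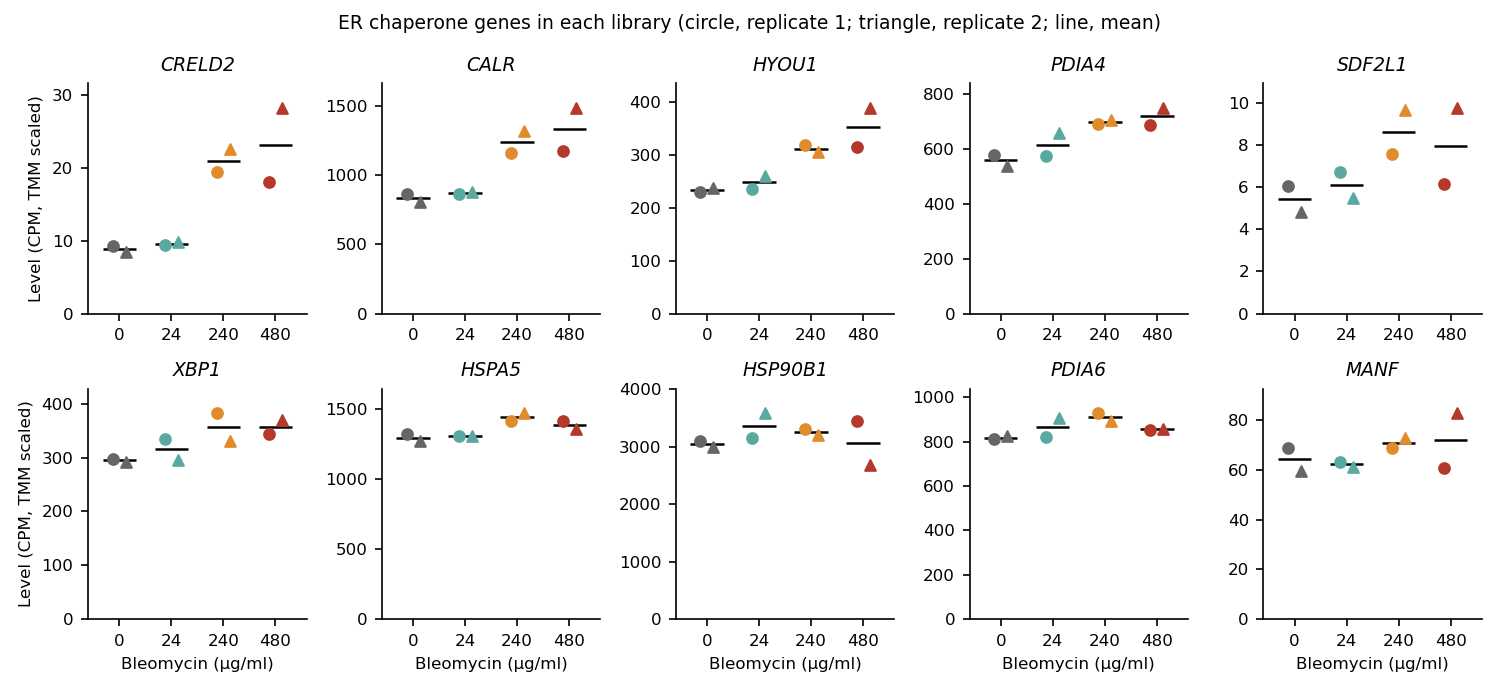
Level of each of the 10 genes (CPM scaled by TMM factors, linear axis from 0) in the 8 libraries, by bleomycin dose in µg/ml, with 0 for untreated cells. Circles are replicate 1, triangles replicate 2 and lines the mean of 2. CRELD2 stands apart most clearly: the 4 libraries at 240 and 480 µg/ml lie between 18.0 and 28.3 CPM, and the other 4 between 8.43 and 9.81 CPM.

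CRELD2 had the steepest change. It had 9.30 and 8.43 CPM without bleomycin, 9.37 and 9.81 CPM at 24 µg/ml, 19.5 and 22.5 CPM at 240 µg/ml, and 18.0 and 28.3 CPM at 480 µg/ml. All 4 libraries of the higher doses lay above all 4 others, and the 2 libraries at 480 µg/ml lay farther apart than any other pair. The log2 fold change was 1.25 ± 0.21 (SE) at 240 µg/ml (21.0 ± 2.16 against 8.86 ± 0.614 CPM, adjusted p = 0.00984) and 1.38 ± 0.21 at 480 µg/ml (23.1 ± 7.25 against 8.86 ± 0.614 CPM, adjusted p = 0.0018). These changes exceed those of 96.1% of tested genes at 240 µg/ml and 94.8% at 480 µg/ml. CRELD2 lies on chromosome 22 at 49918167-49927540 (GRCh38, GENCODE, plus strand), where ALG12 overlaps it on the other strand. The strand that was counted is not given in the sources used here, so reads of the overlap cannot be assigned with certainty. ALG12 itself changed by 0.33 ± 0.16 at 240 µg/ml (adjusted p = 0.224) and 0.40 ± 0.16 at 480 µg/ml (adjusted p = 0.0958), and was not called.

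CALR followed the same steps at a far higher level. It had 863 and 805 CPM without bleomycin, 860.3 and 874 CPM at 24 µg/ml, 1154 and 1318 CPM at 240 µg/ml, and 1171 and 1484 CPM at 480 µg/ml. Here too the 4 libraries of the higher doses were all above the other 4. Its log2 fold change was 0.57 ± 0.14 at 240 µg/ml (1236 ± 116 against 834 ± 40.8 CPM, adjusted p = 0.0355) and 0.67 ± 0.14 at 480 µg/ml (1327 ± 222 against 834 ± 40.8 CPM, adjusted p = 0.00784). Over the 8 libraries the log2 levels of CALR and CRELD2 had a Pearson correlation of 0.995, a description over libraries that share their depth and dose. CALR lies on chromosome 19 at 12938578-12944489, plus strand, with an antisense gene annotated across it.

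Among the partners of HSPA5, HYOU1 was called higher at 480 µg/ml. It had 229.9 and 238 CPM without bleomycin, 236 and 260.1 CPM at 24 µg/ml, 318 and 306 CPM at 240 µg/ml, and 315 and 389 CPM at 480 µg/ml. Its groups at 240 and 480 µg/ml did not overlap with untreated cells. HYOU1 had a log2 fold change of 0.59 ± 0.13 at 480 µg/ml (352 ± 52.5 against 234 ± 5.49 CPM, adjusted p = 0.0107) and 0.42 ± 0.13 at 240 µg/ml, where it was not called (adjusted p = 0.0781). The call was lost at 480 µg/ml without control replicate 1 (adjusted p = 0.0911) or control replicate 2 (adjusted p = 0.0744), and with only the libraries of the 2 groups compared (adjusted p = 0.0566), where the log2 fold change was 0.56, 0.61 and 0.59. HYOU1 lies on chromosome 11 at 119044189-119057202, minus strand, with an antisense gene annotated across it.

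SDF2L1, the J-protein partner, had few reads and wide errors. It had 6.06 and 4.82 CPM without bleomycin, 6.71 and 5.51 CPM at 24 µg/ml, 7.59 and 9.68 CPM at 240 µg/ml, and 6.15 and 9.79 CPM at 480 µg/ml. Both higher doses lay above untreated cells, at 480 µg/ml by a narrow margin in replicate 1. Its log2 fold change, 0.67 ± 0.25 at 240 µg/ml (adjusted p = 0.122) and 0.55 ± 0.25 at 480 µg/ml (adjusted p = 0.127), was not called, although at 240 µg/ml it was larger than that of CALR, with 95% limits of 0.11 and 1.23. MANF had a log2 fold change of 0.14 ± 0.16 at 240 µg/ml and 0.16 ± 0.16 at 480 µg/ml (adjusted p = 0.611 and 0.47), and its libraries at 480 µg/ml, 60.9 and 82.7 CPM, lay on both sides of the untreated 68.6 CPM and above the untreated 59.7 CPM. Without replicate 1 at 480 µg/ml MANF was called higher there (0.36, adjusted p = 0.0229), and without replicate 2 its value was -0.07 (adjusted p = 0.628).

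HSPA5, the chaperone at the centre of the system, differed little between the doses. It had 1319 and 1268 CPM without bleomycin, 1309 and 1309 CPM at 24 µg/ml, 1409.5 and 1468 CPM at 240 µg/ml, and 1412 and 1355 CPM at 480 µg/ml. Its libraries at the higher doses all lay above the untreated ones, but by little. Its log2 fold change was 0.15 ± 0.10 at 240 µg/ml (adjusted p = 0.374) and 0.10 ± 0.10 at 480 µg/ml (adjusted p = 0.511). The 95% limits at 480 µg/ml, -0.13 and 0.33, leave room for a small change in either direction and not for one of the size of CRELD2 or CALR. HSP90B1, the most abundant member, had 3107 and 3003 CPM without bleomycin, 3148 and 3583 CPM at 24 µg/ml, 3308 and 3201 CPM at 240 µg/ml, and 3440.2 and 2680.3 CPM at 480 µg/ml. Its libraries at 480 µg/ml lay on either side of the untreated ones. HSP90B1 had a log2 fold change of 0.09 ± 0.14 at 240 µg/ml (adjusted p = 0.719) and 0.00 ± 0.14 at 480 µg/ml (adjusted p = 0.992), with 95% limits of -0.31 and 0.31 at 480 µg/ml.

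Of the disulfide isomerases, PDIA4 was called higher at 480 µg/ml and PDIA6 was not. PDIA4 had 577 and 539 CPM without bleomycin, 574 and 656 CPM at 24 µg/ml, 691 and 704 CPM at 240 µg/ml, and 686 and 749.8 CPM at 480 µg/ml. The 4 libraries of the higher doses lay above the other 4. The log2 fold change of PDIA4 was 0.32 ± 0.12 at 240 µg/ml (adjusted p = 0.116) and 0.36 ± 0.12 at 480 µg/ml (718 ± 45.2 against 558 ± 26.8 CPM, adjusted p = 0.0467). This call is the least secure of the 4, since it held in 6 of 18 alternative analyses, in which its adjusted p ran from 0.0125 to 0.264. PDIA4 lies on chromosome 7 at 149003062-149028641, minus strand, and no other gene overlaps it. PDIA6 had log2 fold changes of 0.15 ± 0.11 at 240 µg/ml (adjusted p = 0.393) and 0.06 ± 0.11 at 480 µg/ml (adjusted p = 0.691). Protein-coding genes overlap PDIA6 (ATP6V1C2) and HSP90B1 (C12orf73) on the opposite strand, with the same limit on assigning reads as for CRELD2.

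XBP1 had 298 and 291 CPM without bleomycin, 335 and 296 CPM at 24 µg/ml, 382 and 330.1 CPM at 240 µg/ml, and 343 and 369.8 CPM at 480 µg/ml. Each library of the higher doses lay above both untreated ones. The log2 fold change was 0.27 ± 0.12 at both doses (adjusted p = 0.194 at 240 µg/ml and 0.131 at 480 µg/ml) and was not called.

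**Figure D2:**
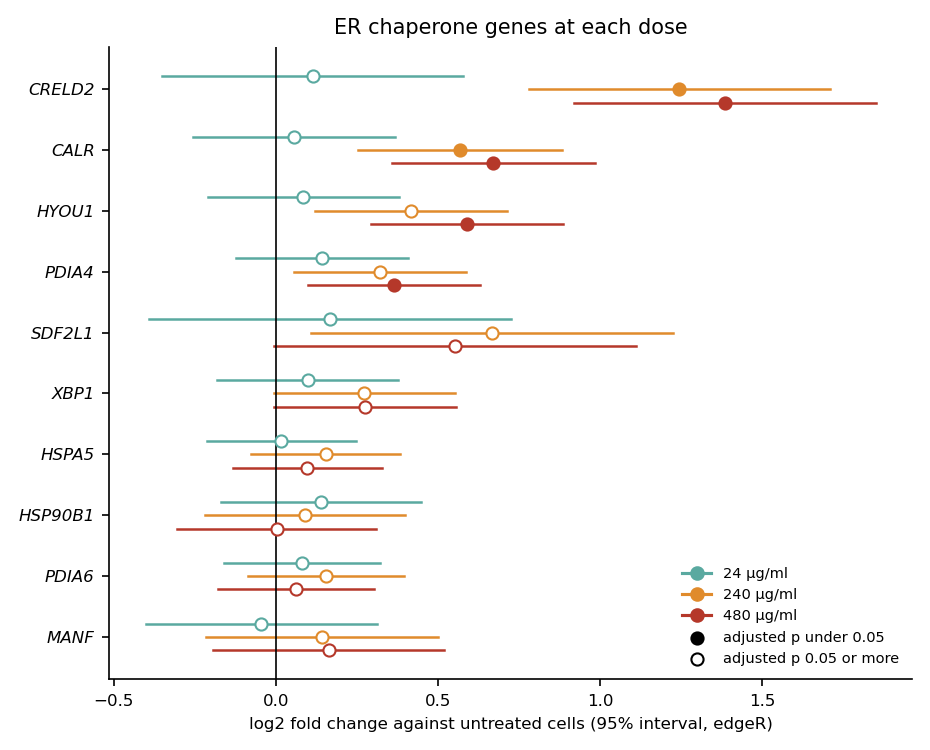
Log2 fold change of each of the 10 genes against untreated cells at 24, 240 and 480 µg/ml, with 95% intervals from edgeR. Filled points have an adjusted p under 0.05 over all genes. The filled points are CRELD2 and CALR at 240 µg/ml and CRELD2, CALR, HYOU1 and PDIA4 at 480 µg/ml. The intervals of HSPA5, HSP90B1, PDIA6, MANF and XBP1 include 0 at every dose, those of XBP1 at 240 and 480 µg/ml by little.

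The median log2 fold change of the 10 genes was 0.09 at 24 µg/ml, 0.30 at 240 µg/ml and 0.32 at 480 µg/ml, beside medians of 0.01 in each case over all tested genes. At 240 µg/ml both treated libraries lay above both untreated libraries for 10 of 10 members, against 33.8% of all tested genes. At 480 µg/ml they did for 8 of 10, all but HSP90B1 and MANF, against 31.8%. The 3 comparisons share the untreated libraries, so their values are not independent. For MANF the margin at 240 µg/ml was narrow, 68.9 against 68.6 CPM. The members were chosen with earlier results of these data known, so these counts are a description and not independent support. At 24 µg/ml the count was 2 of 10, HSP90B1 and CRELD2, against 18.6%.

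The lowest dose gave no call. Log2 fold changes of the 10 genes at 24 µg/ml lay between -0.04 (MANF) and 0.17 (SDF2L1), with an edgeR adjusted p of 1 for each. Over all tested genes 0% were called higher or lower by edgeR, with 605 genes at an unadjusted p under 0.05, and DESeq2 called 36. Between the doses, CRELD2 was the 1 member called higher at 240 than at 24 µg/ml (1.13 ± 0.20, 21.0 ± 2.16 against 9.59 ± 0.311 CPM, adjusted p = 0.0196), where 3.34% of all genes were called higher and 3.49% lower. CALR missed the threshold in that comparison (0.51 ± 0.14, adjusted p = 0.0601). The CRELD2 call was lost without either library of 24 µg/ml or either library of 240 µg/ml (adjusted p 0.097 to 0.16). For 480 against 240 µg/ml no member was called, with changes from -0.12 (SDF2L1) to 0.17 (HYOU1), where 0.0273% of genes were called higher and 0.229% lower. By DESeq2 no member was called between 480 and 240 µg/ml either.

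The calls at 240 µg/ml rest on few libraries, for the members as for all genes. Over all tested genes 945 were called higher with all libraries, and 2660 with only the 240 µg/ml and untreated libraries. The counts of members below moved along with those of all genes. The count of members called higher there was 0 without control replicate 1, without control replicate 2 or without replicate 2 at 240 µg/ml, 1 without replicate 1 at 240 µg/ml or without either library of 24 µg/ml, and 5 without either library of 480 µg/ml. The 5 were CALR, CRELD2, HYOU1, PDIA4 and SDF2L1, as they were with only the 240 µg/ml and untreated libraries in the fit. CRELD2 kept a log2 fold change of 1.08 to 1.34 at 240 µg/ml over 18 alternatives and CALR one of 0.46 to 0.66. At 480 µg/ml the count was 2 without control replicate 1, 1 without control replicate 2, 6 without replicate 1 at 480 µg/ml and 3 without replicate 2 at 480 µg/ml. CRELD2 was called at 480 µg/ml in all 18 alternatives (adjusted p at most 0.0231), CALR in 17, HYOU1 in 15 and PDIA4 in 6. CALR was lost there without control replicate 2 (0.61, adjusted p = 0.0748).

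The 2 libraries at 480 µg/ml differed from each other in a way that follows base composition. Between replicates 2 and 1 the median log2 ratio over genes was higher in each class of higher transcript GC content, with -0.46 in the lowest of 10 equal classes and 0.52 in the highest, whereas between the untreated replicates these medians were 0.09 and -0.19. The members lay along this trend. HSP90B1, with 42.4% GC, had a log2 ratio of -0.36 between replicates 2 and 1, while CRELD2 with 60.7% GC had 0.65 and SDF2L1 with 65.5% GC had 0.67. PDIA6 (45.8% GC) and HSPA5 (46.0% GC) had ratios of 0.00 and -0.06, and CALR (53.9% GC), MANF (54.4% GC) and HYOU1 (55.2% GC) had 0.34, 0.44 and 0.31. Replicate 2 at 480 µg/ml also had the highest share of ribosomal RNA, 3.30% of counts against 1.21% in replicate 1. The libraries of the other groups had 1.32% to 2.93%, the most in replicate 1 at 24 µg/ml, so a high share was not particular to it. Its share of mitochondrial counts was the highest too, 2.33% against 1.16% in replicate 1 and 0.774% to 1.52% in the libraries of the other groups. The part of these in the values of the members was not tested.

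The fold changes of the members followed GC content as well. Over the 10 genes transcript GC and log2 fold change had a Pearson correlation of 0.75 for the middle dose and 0.73 for the top dose, and over the 16407 tested genes with a GC value these were 0.09 and 0.02. These are descriptions over genes of the same libraries. The medians of all genes by class of GC content stayed between -0.10 and 0.12 at 240 µg/ml, less than the values of the called members. A class median does not bound the effect of GC content on a single gene, and its part in the values of the members was not tested. When each library was corrected by a smooth curve of level on GC content, a setting added once these patterns were known, CRELD2 had 1.16 at 240 µg/ml and 1.38 at 480 µg/ml, CALR 0.48 and 0.62, and HYOU1 0.34 and 0.56, all called. SDF2L1 was also called with it, at 0.59 at either dose (adjusted p = 0.0179 at 240 µg/ml and 0.0099 at 480 µg/ml), which makes 4 members at 240 µg/ml and 5 at 480 µg/ml.

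**Figure D3:**
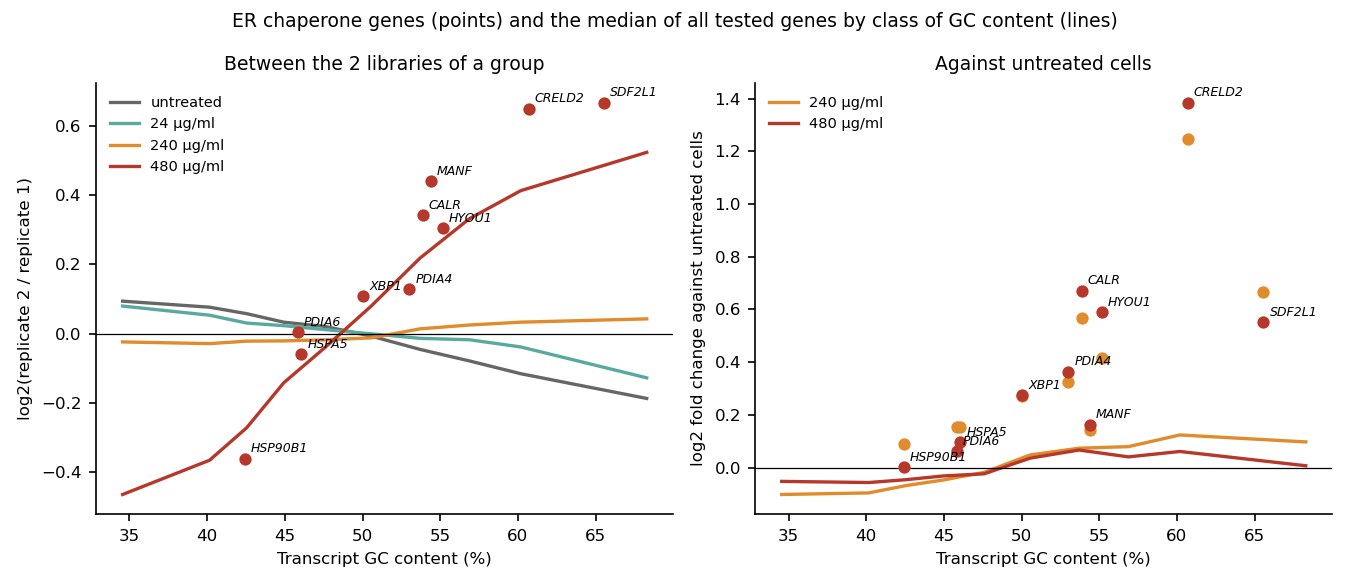
Transcript GC content (%) on the x axis. Left, log2 ratio of replicate 2 to replicate 1, as the median of all tested genes by class of GC content for each group (lines) and for the 10 genes at 480 µg/ml (points). Right, log2 fold change against untreated cells at 240 and 480 µg/ml, as the same medians (lines) and for the 10 genes (points). The line of 480 µg/ml on the left climbs from -0.46 to 0.52 and the members lie near it. On the right CRELD2, CALR, HYOU1 and SDF2L1 lie farthest above the lines, which stay within -0.10 and 0.12. The part of GC content in these values was not tested.

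The other genes of the ER folding machinery moved in both directions. Of 30 further folding genes 4 rose and 2 fell at 240 µg/ml, and 12 rose and 4 fell at 480 µg/ml, with medians of 0.26 and 0.30. Over all tested genes 5.16% were called higher and 5.17% lower at 240 µg/ml, and 13.9% in each direction at 480 µg/ml. Falls among the 30 genes were thus about as frequent as over all tested genes. SIL1, which like HYOU1 releases nucleotide from HSPA5, rose by 1.03 ± 0.15 at 240 µg/ml (adjusted p = 0.00599) and 1.29 ± 0.15 at 480 µg/ml (adjusted p = 0.000638). Paralogs of members were among those that rose: CRELD1, paralog of CRELD2, by 0.61 ± 0.16 at 240 µg/ml and 0.60 ± 0.16 at 480 µg/ml, and at 480 µg/ml SDF2, paralog of SDF2L1, by 0.77 ± 0.15 and CDNF, paralog of MANF, by 1.04 ± 0.25. DNAJB11, a J-protein of HSPA5, rose by 0.72 ± 0.12 at 480 µg/ml. Over 18 alternatives the number of these 30 genes that rose ran from 0 to 14 at 240 µg/ml and from 3 to 16 at 480 µg/ml, with medians above 0 in each. The low ends came without control replicate 1 or 2 (0 and 3) and, at 240 µg/ml, also without replicate 1 or 2 of that dose (0), and without a library of 24 µg/ml the count there was 1. The disulfide isomerases P4HB and PDIA3 rose at 480 µg/ml by 0.45 ± 0.13 and 0.32 ± 0.10, while TXNDC5, another of that family, fell by 0.71 ± 0.12 at 240 µg/ml and by 0.84 ± 0.12 at 480 µg/ml. CANX, the membrane-bound relative of CALR, had -0.17 ± 0.14 and -0.22 ± 0.14 and was not called, so the 2 lectin chaperones took different values, although the difference between them was not tested.

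Calls among the sensors and transducers of the unfolded protein response went in both directions. Of 16 sensors and transducers 1 rose and 2 fell at 240 µg/ml, and 4 rose and 4 fell at 480 µg/ml. Over all tested genes 5.16% were called higher and 5.17% lower at 240 µg/ml, and 13.9% in each direction at 480 µg/ml. Calls in both directions are thus not particular to this list or to the PERK arm below. ATF6B, a relative of ATF6, rose by 0.52 ± 0.12 at 240 µg/ml and 0.71 ± 0.12 at 480 µg/ml. NFYB, a subunit of the NF-Y factor that binds the CCAAT box of the ERSE, fell by 0.53 ± 0.13 and 0.76 ± 0.13. The NF-Y subunits did not all move alike. For 240 against 24 µg/ml NFYB had -0.55 ± 0.13 and was called lower, while NFYA had -0.34 ± 0.11 and NFYC 0.22 ± 0.12, neither called. The 3 sensors themselves, ERN1 (-0.34 ± 0.17 at 480 µg/ml), EIF2AK3 (-0.32 ± 0.13) and ATF6 (0.33 ± 0.12), were not called. In the arm downstream of PERK, 1 of 12 genes rose and 2 fell at 240 µg/ml, and 1 rose and 1 fell at 480 µg/ml. ATF4, its transcription factor, fell by 0.52 ± 0.12 and 0.64 ± 0.12 (adjusted p = 0.0279 at 240 µg/ml and 0.00468 at 480 µg/ml), SESN2, also a target of p53, rose by 0.85 ± 0.17 and 0.99 ± 0.17, and DDIT3 (CHOP) had 0.23 ± 0.13 and 0.25 ± 0.13 and was not called. The sensitive ER stress genes HERPUD1 (-0.03 ± 0.12 at 480 µg/ml, adjusted p = 0.876) and DNAJB9 (-0.11 ± 0.13, adjusted p = 0.555) were not called either. Without control replicate 1, control replicate 2 or either library of 240 µg/ml, none of the genes of these 2 lists was called at 240 µg/ml, and at 480 µg/ml 1 sensor or transducer rose and 3 fell without either control library.

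Genes with and without these elements were among both the called and the uncalled. Of the 8 members with an ERSE or ERSE-II, 2 were called higher at 240 µg/ml and 3 at 480 µg/ml, and PDIA4, called at 480 µg/ml, has neither in its windows. The 24 other tested genes that hold one had 3 calls higher and 1 lower at 240 µg/ml, with a median of -0.11. At 480 µg/ml they had 2 higher and 5 lower, with a median of -0.13. Over all tested genes 5.16% were called higher and 5.17% lower at 240 µg/ml, and 13.9% in each direction at 480 µg/ml. Whether the elements bear on these calls was not tested. HSPA5, HSP90B1, HERPUD1 and CANX, with such elements, were not called, as given above.

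The counts for later steps of the secretory pathway stand beside 5.16% of all tested genes called higher and 5.17% called lower at 240 µg/ml, and 13.9% in each direction at 480 µg/ml. Of 20 genes of ER-associated degradation 2 rose at 240 µg/ml and 4 at 480 µg/ml, among them EDEM2, which takes mannose off misfolded glycoproteins (0.72 ± 0.15 and 1.10 ± 0.15), and OS9, a lectin that passes them on (0.55 ± 0.11 and 0.67 ± 0.11), and none fell. Of 30 genes of translocation and N-glycosylation 1 rose at 240 µg/ml and 3 at 480 µg/ml, led by the signal peptidase subunit SEC11C (1.16 and 1.84), and none fell. Of 20 genes of transport from ER to Golgi none was called at 240 µg/ml, and 2 rose and 3 fell at 480 µg/ml, with a median of -0.25. Of 11 genes of ER calcium handling 1 fell at 240 µg/ml, and 2 rose and 1 fell at 480 µg/ml. The gene that fell at both doses was ITPR3, a calcium release channel (-0.49 ± 0.12 and -0.69 ± 0.12). The calls of these 4 lists at 240 µg/ml were lost without control replicate 1 or either library of 240 µg/ml, and without control replicate 2 all but 1 were. At 480 µg/ml, without either control library, 2 genes of degradation rose and none of ER to Golgi transport was called.

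Chaperones of the cytosol and mitochondria moved the other way. Of 24 such genes 8 fell at 240 µg/ml and 14 at 480 µg/ml and none rose, against 5.17% and 13.9% of all tested genes called lower. Their medians were -0.38 and -0.47, beside 0.30 and 0.32 for the 10 ER genes. HSP90AA1, the inducible cytosolic relative of HSP90B1, fell by 0.84 ± 0.12 and 0.81 ± 0.12, and HSPA9, the mitochondrial relative of HSPA5, by 0.59 ± 0.11 and 0.83 ± 0.11. The medians of these 24 genes stayed below 0 under all 18 alternatives (-0.48 to -0.34 at 240 µg/ml and -0.54 to -0.40 at 480 µg/ml). The count of those that fell at 240 µg/ml was 0 without control replicate 1, control replicate 2 or replicate 2 at 240 µg/ml, 1 without replicate 1 at 240 µg/ml and 18 without either library of 480 µg/ml, and at 480 µg/ml it was 7 without control replicate 1 and 9 without control replicate 2.

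**Figure D4:**
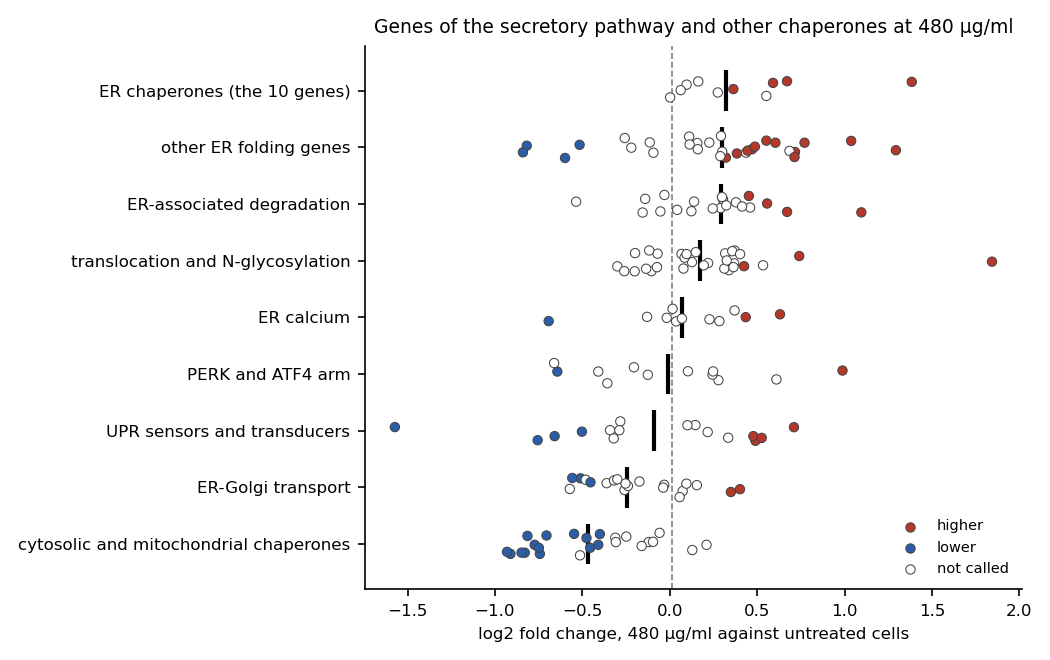
Log2 fold change at 480 µg/ml against untreated cells for the genes of 9 lists, 1 point per tested gene, with the list median as a black bar and the median of all tested genes as a dashed line. Red points were called higher and blue points lower. The median of the 10 ER genes is 0.32 with no blue point, and that of the 24 cytosolic and mitochondrial chaperones is -0.47 with no red point.

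Markers of cell types moved in the same comparisons, and their part in the values of the members was not tested. Their counts stand beside 5.16% of all tested genes called higher and 5.17% called lower at 240 µg/ml, and 13.9% in each direction at 480 µg/ml. Of the 12 hepatic markers, most of them genes of secreted proteins, 3 rose at 240 µg/ml and 4 at 480 µg/ml and none fell. Their summed level was 54321 and 55936 CPM without bleomycin, 59464 and 40755 CPM at 24 µg/ml, 86069 and 79252 CPM at 240 µg/ml, and 71342 and 66938 CPM at 480 µg/ml. The sum was higher in all 4 libraries of the upper doses than in the other 4. So were ALB, TTR, FGA, FGB, FGG, HNF4A and AHSG, the last by a narrow margin (at least 3.05 against at most 3.01 CPM). AFP, APOA1, APOB, SERPINA1 and TF were not. AFP, which made up most of the sum, had 46777 CPM in replicate 2 at 480 µg/ml, about as in replicate 1 at 24 µg/ml (46810.5 CPM). Of the 9 tested type 2 alveolar markers 1 rose and 2 fell at 240 µg/ml and 1 rose and 4 fell at 480 µg/ml. The sums were 99.7 to 122 CPM in the 4 libraries of the upper doses and 167 to 188 CPM in the other 4. LPCAT1 made up most of these sums, with 60.2 to 82.8 CPM at the upper doses and 117 to 126 CPM in the others. ABCA3 went the other way, with 16.6 to 32.2 CPM against 11.9 to 14.9 CPM. Of 10 mesenchymal markers 3 fell at 240 µg/ml, and 1 rose and 5 fell at 480 µg/ml (sums of 419 to 546 CPM at the upper doses and 458 to 505 CPM in the other libraries). LUM made up most of these sums, with 307 to 430 CPM and 270 to 316 CPM. COL1A2, COL3A1, PDGFRA, PDGFRB and DCN were lower in every library of the upper doses than in any other library. TWIST1 was higher, and the remaining markers overlapped. Of 9 tested intestinal markers 2 rose at 240 µg/ml, and 2 rose and 3 fell at 480 µg/ml (sums of 3003 to 3618 CPM and 2480 to 3282 CPM). CDH17 made up most of the intestinal sum in each library. CDX1 was not tested.

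The 10 genes did not form 1 profile over the 8 libraries. The Pearson correlation of a member's log2 level with the mean of the other 9 was 0.95 for CRELD2 and for PDIA4, 0.93 for CALR, 0.89 for HYOU1, 0.81 for SDF2L1 and HSPA5, 0.76 for XBP1, 0.61 for MANF, 0.58 for PDIA6 and -0.20 for HSP90B1. The ratio of CALR to HSPA5 in TPM was 1.35 and 1.31 without bleomycin, 1.36 and 1.38 at 24 µg/ml, then 1.69 and 1.85 at the middle dose, and 1.71 and 2.26 at the top dose, so the balance of these 2 abundant chaperones differed between the upper doses and the rest in every library. Among other tested genes whose mean log2 CPM was 3 or more, those whose profile over the 8 libraries was most like the mean profile of the members were PIFO (r = 0.986), MAN2C1 (0.985), BAX (0.984), PIDD1 (0.983), RPS27L (0.982), ADAMTS7 (0.981), DDOST (0.980) and TP53TG1 (0.978). DDOST, a subunit of the oligosaccharyltransferase of the ER, is the only 1 of these 8 on the gene lists used here. It had the smallest change of the 8 at 480 µg/ml, 0.43 ± 0.13. The others ran from 0.54 ± 0.14 (MAN2C1) to 1.38 ± 0.21 (PIDD1), with 1.22 ± 0.17 for BAX.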

How the data were processed

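Counts, TPM and FPKM were deposited for 8 libraries, 2 per dose. The submitters' processing notes name Trimmomatic, HISAT2, Bowtie2, StringTie and GRCh38, and the annotation, versions and strand counted are not given in the sources used here. Libraries were made with a stranded mRNA kit from 1 µg of RNA, per the labels' protocols. The deposited counts are whole numbers per symbol with no normalization (53431773 to 67715984 per library), and TPM values are length-scaled by the authors. A count of 0 allows up to 0.0443 to 0.0561 CPM (3 counts, counting error only). FPKM was not used.

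Counts were tested with edgeR 4.0.16 in R 4.3.3: filterByExpr (at least 10 counts, 15 in total), TMM factors, 1 quasi-likelihood fit of all 8 libraries by group, and Benjamini-Hochberg adjustment over 18303 genes. Residual degrees of freedom were 4, prior ones 4.98, and the biological coefficient of variation was 0.15. TPM served for levels between genes and for limma 3.58.1. Alternatives were DESeq2 1.42.0, other scalings and filters, fewer libraries, a replicate block and a GC offset. GC content is that of 1 GENCODE transcript per gene (89.6% of tested genes). Promoter windows are RefSeq, GRCh38.p14, matched by symbol for all 10 genes.

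The members and lists were chosen with earlier results of these data known. Named genes are the 10 members, up to 3 genes of each list with the smallest p at 240 and at 480 µg/ml, a fixed set that includes CANX, PDIA3, P4HB, DNAJB9, HERPUD1, ATF4, DDIT3, ALG12, SDF2, CDNF and CRELD1, and the 8 genes most like the members.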

Additional observations from a re-analysis of the deposited data

How the results depend on the processing

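CRELD2 at 480 µg/ml was called in every alternative run, and no member was called lower in any. The log2 fold changes of HSPA5, CRELD2, SDF2L1, PDIA4, PDIA6, HYOU1, XBP1 and CALR at 240 and 480 µg/ml kept their sign throughout. Leaving out 1 library at a time gave 0 to 5 members called higher at 240 µg/ml (2 with all), 1 to 6 at 480 µg/ml (4 with all) and 0 to 3 for 240 against 24 µg/ml (1 with all). With only the libraries of the 2 groups compared, these counts were 5, 2 and 3. For 240 against 24 µg/ml DESeq2 and no filter each gave 2 and the GC offset gave 3, and at 240 µg/ml the GC offset gave 4.

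No pairing by replicate number was seen: deviations of same-numbered libraries correlated by -0.08 to 0.04 over all tested genes. This cannot exclude a shared culture or batch, since noise between replicates and the GC trend at 480 µg/ml enter these values. With the number as a block, 1 member, CRELD2, was called at 240 µg/ml and 3 at 480 µg/ml, HSP90B1 at 480 µg/ml was -0.0012, and the counts of all genes for 240 against 24 and for 480 against 240 µg/ml were 621 and 8.

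In the alternatives run, signs turned only for changes that were not called. HSP90B1 was -0.0138 and -0.0139 at 240 µg/ml and -0.0652 at 480 µg/ml by limma on log2 TPM with pseudocounts of 1 and 0.1, and PDIA6 was -0.0359 and -0.036 for 240 against 24 µg/ml. With the GC offset HSP90B1 was 0.0182 for 240 against 24 µg/ml. With 1 library left out the log2 fold change ran -0.15 to 0.056 for MANF, -0.015 to 0.043 for HSPA5 at 24 µg/ml, -0.20 to 0.17 for HSP90B1, -0.074 to 0.36 for MANF at 480 µg/ml, -0.14 to 0.043 for HSP90B1 for 240 against 24 µg/ml, -0.10 to 0.11 for XBP1, -0.22 to 0.22 for MANF, -0.49 to 0.17 for SDF2L1, -0.29 to 0.080 for HSP90B1, -0.22 to 0.42 for CRELD2, -0.025 to 0.097 for PDIA4, -0.079 to 0.26 for CALR for 480 against 240 µg/ml. The cause was not tested.

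Counts of all genes called were, at 24 µg/ml (0), 36 by DESeq2, 83 with no filter, 14 with 2 groups, 1 by limma (pseudocount 0.1), 12 with the GC offset and 0 to 24 with 1 library left out. At 240 µg/ml (1892) they were 2907 with no filter, 5399 with 2 groups, 3730 with the GC offset and 120 to 4982 with 1 library left out. At 480 µg/ml (5085) they were 2858 with 2 groups and 2248 to 7889. For 240 against 24 µg/ml (1250) they were 2015 by DESeq2, 2375 with no filter, 4341 with 2 groups, 783 and 682 by limma, 3266 with the GC offset and 0 to 4630. For 480 against 240 µg/ml (47) they were 21 with total counts, 324 by DESeq2, 465 with no filter, 0 with 2 groups, 11 and 12 by limma, 329 with the GC offset and 0 to 1471. By limma 539 rose and 853 fell at 240 µg/ml, and 277 rose and 506 fell for 240 against 24 µg/ml (pseudocount 1), against 945 and 947, and 612 and 638, by edgeR. With 2 libraries a group, changes of several SE could go uncalled, as those of SDF2L1 at 240 µg/ml (0.67 ± 0.25) and CALR for 240 against 24 µg/ml (0.51 ± 0.14) did, and with 1 left out the lone library is assumed to vary like the others.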
